A study of Homo sapiens with 6 samples.

Results

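Long intergenic non-coding RNA (lincRNA) genes are transcribed between protein-coding genes into spliced or unspliced RNA without a long reading frame. Some of these RNAs act as scaffolds of nuclear bodies, some bind proteins in the cytoplasm, and others are mainly carriers of small RNAs that are cut out of them, such as small nucleolar RNAs (snoRNAs), which guide the modification of ribosomal RNA, and microRNAs, which repress mRNAs. For many lincRNA genes no function is known, and a common description is therefore by the protein-coding gene next to them.

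The genes described here were chosen by annotation and by level: the rows annotated as lincRNA whose FPKM averaged 2 or more in the 6 libraries together. FPKM are fragments on a gene, scaled by its length and by the depth of the library. By this rule 185 of 7629 lincRNA genes and of 58735 genes in all were chosen. RNA came from NCI-N87, a human gastric cancer cell line in which ERBB2 is amplified. Cells were transduced with lentivirus carrying either the control vector (shCtrl, 3 libraries) or a single short hairpin RNA against SCAMP1 (shS1#1, 3 libraries). By the methods the control vector was empty, so shCtrl cells carried no hairpin. Puromycin at 2 µg/ml was used to obtain stable populations in both groups. SCAMP1 encodes a secretory carrier membrane protein that cycles between the cell surface and internal vesicles. The hairpin shS1#2 and other cell lines were not analysed here. A change therefore cannot be assigned to the loss of SCAMP1 rather than to this hairpin, to carrying any hairpin or to this population. The labels name the libraries of a group as biological replicates, but the methods do not list RNA-seq among the independently repeated assays, and p-values measure the spread between these libraries, which may be technical.

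SCAMP1 itself, the gene targeted, was at 12.6, 12.1 and 11.5 FPKM in shCtrl and at 1.70, 1.37 and 1.99 FPKM in shS1#1 cells (log2 fold change -2.78, limma adjusted p = 0.000248). Of 10 markers of a gastric epithelial line, 8 passed the filter on low values, with KRT8 highest at a mean of 2268 FPKM, whereas TFF1 and CDX1 were at 0. Of 17 markers of fibroblasts, leukocytes, endothelial and neural cells, 1 passed it, COL1A1 at a mean of 0.643 FPKM. Reads on genes numbered 14311769 to 15988700 per library. The library of shS1#1 replicate 2 stood apart. Its mitochondrial share of reads was 9.21%, against 6.09% to 6.78% in the other libraries, and its counts differed from those of the other shS1#1 libraries by a chi-square per degree of freedom of 44.1 and 34.5, against 1.97 to 3.10 for the other pairs within groups. It held the lowest of the 6 values for 81 of the 185 lincRNA genes (43.8%), compared with 32.4% of all genes tested. The main counts, and values of genes where it decides a call, are therefore given with and without it. Counts of called neighbours are given with all libraries only. All 40 genes called with 6 libraries kept their call and sign without it. The part of this library in the results was not tested further.

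The 185 genes lay on 24 chromosomes, most often on chromosome 17 (20 genes), and 58 had a single exon. Their median length was 1069 bases, against 5034 bases for the protein-coding genes tested, and their median level was 3.61 FPKM, against 6.33 FPKM. Only 24 reached 10 FPKM. Because they were short and low, 55 had at least 100 reads in every library and 16 had fewer than 10 reads in some library, so that counting error is large for many of them. Exons of 55 genes overlapped exons of another gene, and 36 genes held at least 100 bases with 95% identity or more to another gene. The values of such genes may include reads of the other gene. Just above the threshold lay MIR4435-2HG, LINC01186 and AL117379.1 (2.03, 2.03 and 2.02 FPKM), and just below it AC127024.5, AC245297.3 and AC023794.2 (1.98, 1.97 and 1.96 FPKM). The mean was at least 2 FPKM in both groups for 156 genes, in shCtrl alone for 12 and in shS1#1 alone for 17. Genes of the last 2 kinds necessarily differed in the direction that brought them in.

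Of the 8 most abundant of these RNAs, 5 were snoRNA hosts or known nuclear or cytoplasmic RNAs. SNHG19, the host of SNORD60, had the highest mean. It was at 139, 127 and 130 FPKM in shCtrl cells and at 107, 18.8 and 83.5 FPKM in shS1#1 cells. NORAD, an abundant cytoplasmic RNA that binds Pumilio proteins, was at 84.0, 83.7 and 81.2 FPKM against 69.5, 111 and 83.0 FPKM. The groups did not overlap for SNHG19, with replicate 2 of shS1#1 far below the rest, and overlapped for NORAD, with the same library above the rest. SNHG8, the host of SNORA24, was at 67.9, 67.8 and 75.0 FPKM against 51.5, 12.7 and 44.7 FPKM. AL162413.1, a gene of 110 bases with a single exon and no known role, was at 96.3, 103 and 111 FPKM against 87.8, 15.3 and 70.2 FPKM. Both followed the pattern of SNHG19. None of these 4 passed the test with all libraries: the log2 fold change was -1.25 ± 0.62 (SE) for SNHG19 (limma adjusted p = 0.229), -1.18 ± 0.51 for SNHG8 (adjusted p = 0.177), -1.18 ± 0.63 for AL162413.1 (adjusted p = 0.258) and 0.06 ± 0.17 for NORAD (adjusted p = 0.851). Without shS1#1 replicate 2, the first 3 were lower by the same test, by -0.48 (adjusted p = 0.0257), -0.55 (adjusted p = 0.00606) and -0.39 (adjusted p = 0.0455). Their call thus rested on whether that library was used.

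MALAT1 and NEAT1, transcribed from neighbouring loci on chromosome 11, are retained in the nucleus. MALAT1 is found in nuclear speckles, where splicing factors gather, and NEAT1 is the scaffold of paraspeckles. MALAT1 was at 41.0, 41.7 and 41.0 FPKM in shCtrl cells and at 54.0, 71.4 and 58.3 FPKM in shS1#1 cells. All 3 shS1#1 values were above all shCtrl values, and MALAT1 rose by 0.56 ± 0.11 (SE) on the log2 scale (limma adjusted p = 0.0220). Without shS1#1 replicate 2, its highest library, the value was 0.44 (adjusted p = 0.00175), and the call was lost with a replicate block and without any shCtrl library or shS1#1 replicate 3 (adjusted p from 0.0551 to 0.0935). NEAT1 was at 45.4, 45.1 and 44.7 FPKM against 65.1, 41.6 and 63.2 FPKM. Here replicate 2 of shS1#1 lay below the controls while the other pair lay well above them. The log2 fold change of NEAT1 was 0.30 ± 0.17 (adjusted p = 0.294), and without that library it was 0.51 (adjusted p = 0.000429). Among 19 paraspeckle proteins measured, 1 passed the test (5.26%, against 14.0% of all genes tested, and 6 without shS1#1 replicate 2, against 27.8%), HNRNPA1, which fell by 0.45 on the log2 scale, and the list had a median log2 fold change of -0.16.

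**Figure D1:**
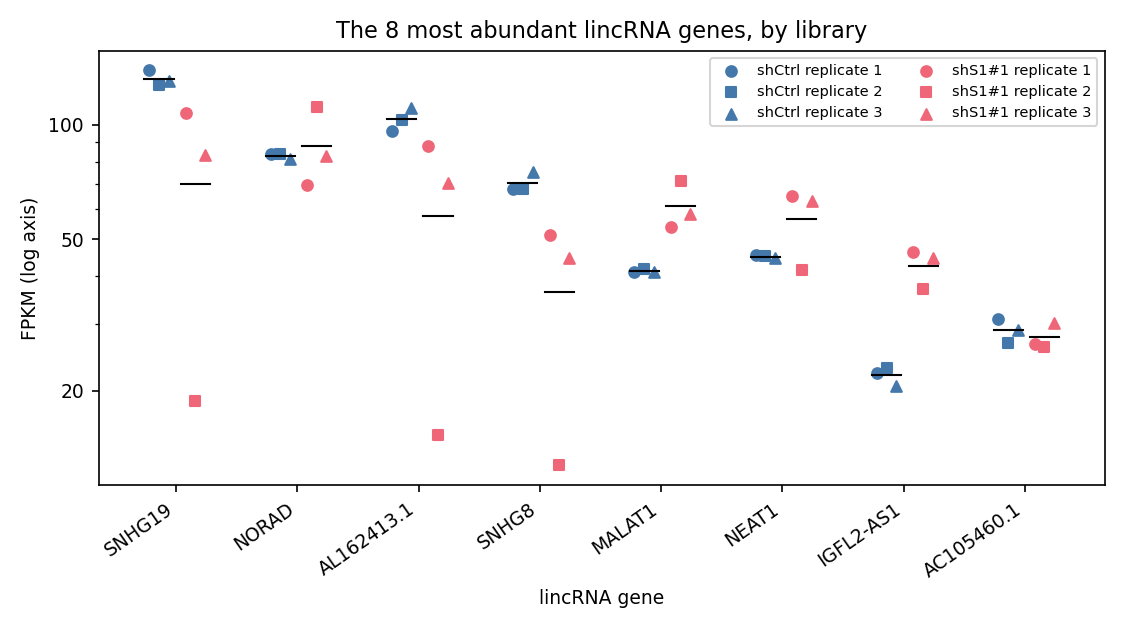
FPKM (log axis) of the 8 lincRNA genes with the highest mean, per library, with shCtrl and shS1#1 libraries in different colours, a marker shape for each replicate and a bar at the group mean. The shS1#1 replicate 2 square lies far below the other libraries for SNHG19, AL162413.1 and SNHG8, and above them for NORAD and MALAT1, while IGFL2-AS1 is higher in all 3 shS1#1 libraries.

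AC105460.1, the least abundant of the 8 in the plot of the highest means, was at 30.9, 26.8 and 28.9 FPKM in shCtrl cells and at 26.6, 26.1 and 30.2 FPKM in shS1#1 cells, with overlapping groups (log2 fold change -0.06, 95% interval ± 0.22). NORAD, NEAT1 and MALAT1 together took 49.2% to 49.5% of the reads of the 185 genes in shCtrl cells and 55.5%, 58.2% and 56.7% in shS1#1 cells. The 185 genes together held 0.389%, 0.388% and 0.377% of the reads on genes in shCtrl and 0.418%, 0.357% and 0.423% in shS1#1 cells. The means were 0.385% ± 0.00659 and 0.399% ± 0.0369 (SD, n = 3 each), which overlapped (exact two-sided permutation test, p = 0.5). As a share of summed FPKM, which weights short genes more, the direction turned: the genes held 0.479%, 0.480% and 0.477% in shCtrl and 0.462%, 0.357% and 0.459% in shS1#1 cells, with no overlap (p = 0.1 by the same exact test, the smallest possible). In bulk RNA a smaller number of cells with a transcript and less of it per cell cannot be told apart.

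Across the 185 genes, 40 passed the test at an adjusted p under 0.05 (21.6%), compared with 14.0% of the 15556 genes tested and 16.7% of protein-coding genes. Of these, 22 were higher in shS1#1 cells (8.82% of all genes tested were) and 18 were lower (5.17%). Among the 156 genes at or above 2 FPKM in both groups, 30 passed, 14 higher and 16 lower, and 53 passed without shS1#1 replicate 2, 25 higher and 28 lower. The median log2 fold change over the 185 genes was -0.15, against -0.02 for all genes tested. It was -0.02 without shS1#1 replicate 2, so the shift of the median rested on that library. Without it 65 genes passed, against 27.8% of all genes tested, and these included all 40. Of the 65, 33 were higher (14.7% of all genes tested) and 32 lower (13.2%). The groups did not overlap for 76 genes (41.1%), and for 41.4% of all genes tested. The 464 other lincRNA genes that passed the filter on low values had 23 calls (5.0%), at lower read counts. Of the 185 genes, 12 (6.49%) passed with all libraries and also when any single library was left out, as did 4.46% of all genes tested. These were 30% of the 40 called, against 31.9% of all called genes, and the other 28 lost the call when 1 library or another was left out. Of the 12, LINC01940, LINC01269, LINC00472, AC007785.1, IGFL2-AS1, LINC01559, LINC01186 and AC084018.1 were higher in shS1#1 cells, and AP000785.2, AC022893.2 and AC102953.2 were among those that were lower. LINC01940, LINC00472 and LINC01186 averaged under 2 FPKM in shCtrl cells, and AC102953.2 did so in shS1#1 cells. Such genes entered through the group where they were high, so nothing is read from the excess of 6.49% over 4.46%.

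**Figure D2:**
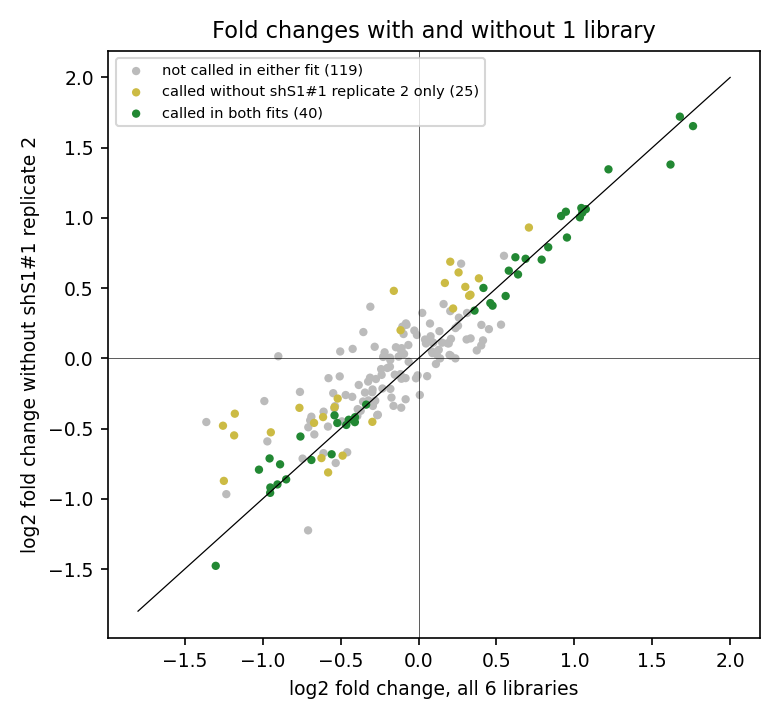
Log2 fold change (shS1#1 over shCtrl) of 184 lincRNA genes with all 6 libraries (x axis) and without shS1#1 replicate 2 (y axis), with the line of equality. All 40 genes called with 6 libraries (green) keep their sign and call, 25 are called only without the library (yellow), and 119 are called in neither (grey).

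A fold change above 2 together with an adjusted p under 0.05 was seen for 8 genes that rose (2.42% of all genes tested) and 2 that fell (0.746%). Of the 8, LINC01940, LINC00472, LINC02560 and AC254633.1 averaged under 2 FPKM in shCtrl cells and were chosen through their high shS1#1 values, so nothing is read from the excess over the background. The other 4 that rose and both that fell averaged 2 FPKM or more in both groups. Without shS1#1 replicate 2 the counts were 10 (2.51%) and 1 (0.977%). LINC01940, whose entry depended on its rise, was at 1.16, 1.15 and 1.28 FPKM in shCtrl cells and at 3.77, 5.00 and 4.19 FPKM in shS1#1 cells. Every shS1#1 value was well above every control value, with 64 to 239 reads per library (log2 fold change 1.76 ± 0.13, limma adjusted p = 0.000786). LINC01269 was at 2.93, 3.79 and 4.19 FPKM against 10.9, 11.0 and 13.4 FPKM. Its groups were separated as clearly, and the 3 shS1#1 libraries lay close together (1.68 ± 0.15, adjusted p = 0.00161). LINC00472, from whose locus miR-30a and miR-30c are made, was at 1.502, 1.08 and 1.45 FPKM against 3.46, 2.69 and 3.61 FPKM (1.22 ± 0.17, adjusted p = 0.00747). AC007785.1 was the most abundant of the 8, at 16.9, 13.6 and 18.1 FPKM against 35.1, 32.1 and 32.7 FPKM (adjusted p = 0.00323). These 4 genes also passed without any single library.

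The other 4 genes did not keep the call whichever library was left out. LINC02560, with a single exon, was at 2.34, 1.57 and 1.41 FPKM against 3.58, 3.82 and 3.87 FPKM (log2 fold change 1.07, limma adjusted p = 0.0145). AC078820.1 was at 1.78, 3.56 and 2.62 FPKM against 6.09, 5.51 and 4.70 FPKM (1.05, adjusted p = 0.0385). AC078923.1, which lies over it on the map of chromosome 12, was at 1.87, 3.08 and 2.99 FPKM against 5.09, 5.64 and 5.48 FPKM (1.04, adjusted p = 0.0187). In all 3 the groups were apart, and the control libraries spread more than the shS1#1 libraries. The call of AC078820.1 was lost with no filter, no trend or a replicate block and without replicate 1 or 3 of either group (adjusted p from 0.0592 to 0.125), that of LINC02560 without shCtrl replicate 2 or 3 or shS1#1 replicate 3 (0.0554 to 0.0702), and that of AC078923.1 without replicate 3 of either group (0.0519 and 0.0694). AC254633.1 was at 1.28, 0.522 and 1.31 FPKM against 2.58, 4.45 and 2.77 FPKM, on only 3 to 21 reads per library. When each of the 6 libraries was dropped in turn, its call (adjusted p = 0.0377) remained in a single case.

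AP000785.2 had the largest fall among the genes called. It was at 6.66, 6.34 and 5.84 FPKM in shCtrl cells and at 1.94, 3.20 and 2.47 FPKM in shS1#1 cells. The highest shS1#1 value was far below the lowest control value (log2 fold change -1.30 ± 0.18, limma adjusted p = 0.00668). AC027031.2 was at 4.09, 3.55 and 4.65 FPKM against 2.17, 1.39 and 2.46 FPKM (-1.02, adjusted p = 0.0298). Its groups were apart too, but without shS1#1 replicate 2, its lowest library, the difference was -0.79, and the call was lost with no filter and without any shCtrl library or shS1#1 replicate 1 (adjusted p from 0.0522 to 0.119).

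**Figure D3:**
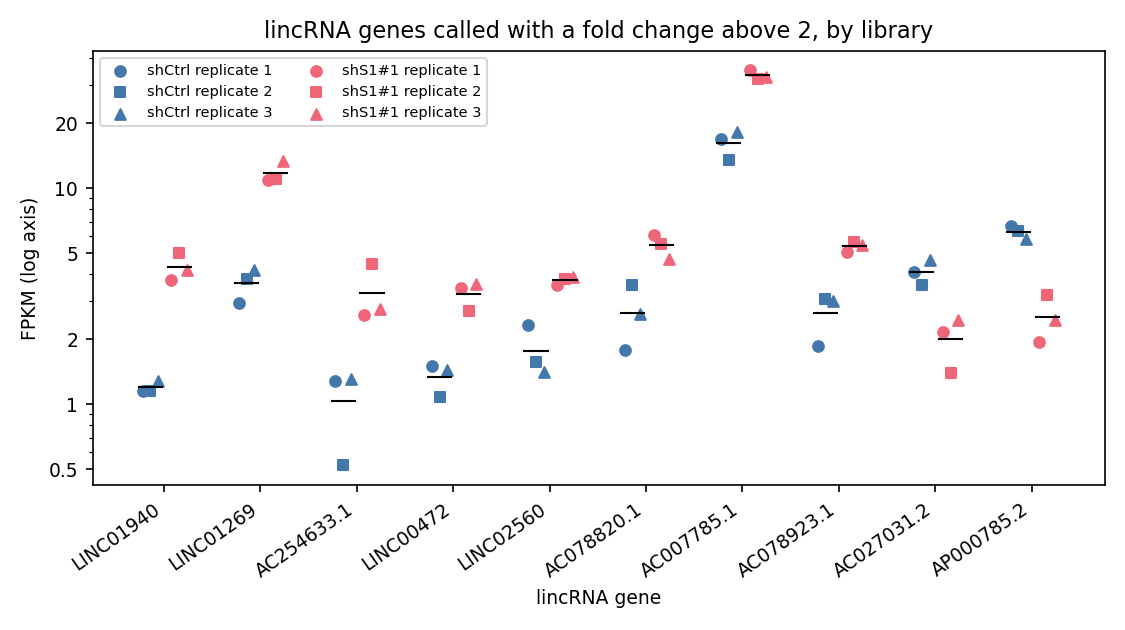
FPKM (log axis) per library of the 10 lincRNA genes called with a fold change above 2, with marker shapes for replicates and bars at group means. The shCtrl and shS1#1 points do not overlap for any of the 10 genes: 8 lie higher and 2 (AC027031.2 and AP000785.2) lower in shS1#1 cells.

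The other called genes had smaller differences. LINC01559, the only gene measured of a list of lincRNAs linked to hypoxia or stress, was at 2.87, 3.14 and 2.64 FPKM in shCtrl cells and at 5.21, 6.45 and 5.39 FPKM in shS1#1 cells, and its nearest gene GRIN2B was not tested (log2 fold change 0.95 ± 0.11, limma adjusted p = 0.00403). AC012625.1 was at 1.82, 1.44 and 1.35 FPKM against 3.18, 2.57 and 3.17 FPKM (0.92 ± 0.15, adjusted p = 0.0123), beside NR2F1, a nuclear receptor gene with a value of 0.82 that did not pass. AC012625.1 averaged under 2 FPKM in shCtrl cells and entered through its higher shS1#1 values, which fixed its direction. EBLN3P, one of the best counted genes with 848 to 1054 reads per library, was at 8.90, 8.81 and 8.47 FPKM against 11.0, 11.5 and 11.1 FPKM. Its rise of 0.36 ± 0.06 was small but far beyond the spread of either group (adjusted p = 0.0140). AC084018.1, AC011747.1, LINC01186, AC245060.2, AL512274.1 and AL683887.1 rose by 0.58, 0.64, 0.69, 0.83, 0.48 and 0.46, with 14 to 387 reads in a library, and none of their nearest genes that were tested passed. LINC01186 also averaged under 2 FPKM in shCtrl cells.

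Among those that fell, AC022893.2 was at 7.62, 7.46 and 6.62 FPKM against 3.91, 3.77 and 3.75 FPKM (log2 fold change -0.91 ± 0.08, limma adjusted p = 0.00146), with TERF1, a telomere-binding protein gene, at -0.09. AC102953.2 was at 2.88, 2.76 and 2.85 FPKM against 1.74, 1.81 and 1.60 FPKM (-0.69 ± 0.09, adjusted p = 0.00602), with INTS1, a subunit of the Integrator complex, at 0.16. In both, the libraries of a group lay close together. AC102953.2 averaged under 2 FPKM in shS1#1 cells and entered through its higher shCtrl values. LINC01106 and LINC01123, which share 2256 bases at 99.5% identity and may exchange reads, fell by 0.85 and 0.54. AL645608.2 and LINC02593, both nearest to SAMD11, fell by 0.41 each while SAMD11 was at -0.04. AC245041.2, most of whose length matches ANXA8, fell by 0.34.

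The promoter of LINC01269 is printed because the gene had the strongest rise among those with both a matched promoter and a searched motif. Promoters (250 bases before the start to 50 after it) were found in RefSeq, build GRCh38.p14, for 59 of the genes, and 125 were not matched. They were searched on both strands for GAAANNGAA, the core shared by interferon-responsive elements, TGANTCA, the core of AP-1 sites, and TATAAA. GAAANNGAA was in 10.2% of the matched promoters and in 8.11% of all 35116 promoters, TGANTCA in 6.78% and 7.71%, and TATAAA in 6.78% and 11.5%. In the sequence below, on the plus strand at chr14:70698448-70698747, capitals mark the TGANTCA match 217 bases before the start and the GAAANNGAA match after it. The promoter of LINC01940 held none of these letters. A match is a description of the sequence only.
LINC01269: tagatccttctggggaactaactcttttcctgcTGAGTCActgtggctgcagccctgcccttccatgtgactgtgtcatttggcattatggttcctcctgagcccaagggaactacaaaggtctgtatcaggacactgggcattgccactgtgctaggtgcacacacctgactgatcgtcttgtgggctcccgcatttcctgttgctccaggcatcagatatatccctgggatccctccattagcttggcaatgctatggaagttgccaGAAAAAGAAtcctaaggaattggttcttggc

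Genes that host snoRNAs in their introns are known for starts at a C followed by pyrimidines, which links their RNA to the regulation of translation, and for decay of the spliced RNA once the snoRNA has been released. In the class of snoRNA hosts, 8 genes were measured. All 8 had a log2 fold change below 0, with a median of -0.86, but only SNHG18 passed the test with all libraries (12.5%, against 14.0% of all genes tested), at 9.15, 9.84 and 9.75 FPKM against 6.81, 4.23 and 6.17 FPKM (-0.76 ± 0.17, limma adjusted p = 0.0374). The groups did not overlap for 6 of the 8, against 41.4% of all genes tested. Replicate 2 of shS1#1 held the lowest value in every one of them. The summed FPKM of the 8 was 261, 254 and 263 in shCtrl cells and 203, 51.6 and 168 in shS1#1 cells (260 ± 4.81 and 141 ± 79.2, SD, n = 3 each). All 3 shS1#1 sums were lower, with an exact two-sided permutation p = 0.1, the smallest that 3 against 3 libraries allow. Without shS1#1 replicate 2, 6 of the 8 passed, against 27.8% of all genes tested, with a median of -0.49. The call of SNHG18 with all libraries was lost with no filter, no trend or a replicate block, and when any shCtrl library or shS1#1 replicate 3 was left out (adjusted p from 0.0592 to 0.133). By annotation instead of by name, 10 of the lincRNA genes held a snoRNA, of which 9 were lower and 1, AC078923.1, was higher and called. Of these 10, 2 passed with all libraries (20%, against 14.0%) and 7 without shS1#1 replicate 2 (against 27.8%).

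SNHG15 was at 15.3, 15.7 and 15.5 FPKM in shCtrl cells and at 13.0, 5.09 and 11.2 FPKM in shS1#1 cells. SNHG4 was at 13.4, 13.4 and 12.1 FPKM against 10.5, 6.80 and 9.85 FPKM. EPB41L4A-AS1 was at 7.34, 7.75 and 6.54 FPKM against 5.43, 2.01 and 4.54 FPKM. In all 3 the lowest control lay above the highest shS1#1 library, and none passed with all libraries (limma adjusted p = 0.183, 0.083 and 0.126). With voom on the recovered reads of all libraries, SNHG4 passed (voom adjusted p = 0.0428). Without shS1#1 replicate 2 the log2 fold changes were -0.35, -0.35 and -0.53 (adjusted p = 0.0167, 0.0134 and 0.0186). SNHG9 was at 6.41, 11.0 and 11.0 FPKM against 7.08, 0.928 and 6.33 FPKM, and SNHG25 at 2.72, 1.51 and 3.49 FPKM against 1.48, 1.05 and 1.97 FPKM. The groups overlapped in both, and neither passed in either fit.

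The starts of the 5 snoRNA hosts with a RefSeq promoter are shown with that of MALAT1, 40 bases before the start to 24 after it, on the strand of the gene (GRCh38.p14). Capitals mark the base at the start and any TATAAA upstream. SNHG19 (chr16:2155334-2155398, minus), SNHG4 (chr5:139274061-139274125, plus) and SNHG18 (chr5:9546160-9546224, plus) begin with C and at least 4 pyrimidines, as 5.45% of all promoters do. SNHG8 (chr4:118278722-118278786, plus) and EPB41L4A-AS1 (chr5:112160486-112160550, plus) do not. SNHG19 and MALAT1 (chr11:65499005-65499069, plus, a start inside the annotated gene) share TATAAA at the same distance from the start.
SNHG19: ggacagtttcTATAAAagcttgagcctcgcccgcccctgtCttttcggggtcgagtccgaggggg
SNHG8: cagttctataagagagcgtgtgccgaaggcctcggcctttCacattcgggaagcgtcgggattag
SNHG4: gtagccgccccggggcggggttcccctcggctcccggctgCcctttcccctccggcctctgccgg
SNHG18: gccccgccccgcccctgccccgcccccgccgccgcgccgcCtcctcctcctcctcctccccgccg
EPB41L4A-AS1: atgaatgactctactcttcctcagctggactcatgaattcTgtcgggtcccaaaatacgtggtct
MALAT1: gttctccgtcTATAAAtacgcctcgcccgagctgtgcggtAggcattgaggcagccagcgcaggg

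**Figure D4:**
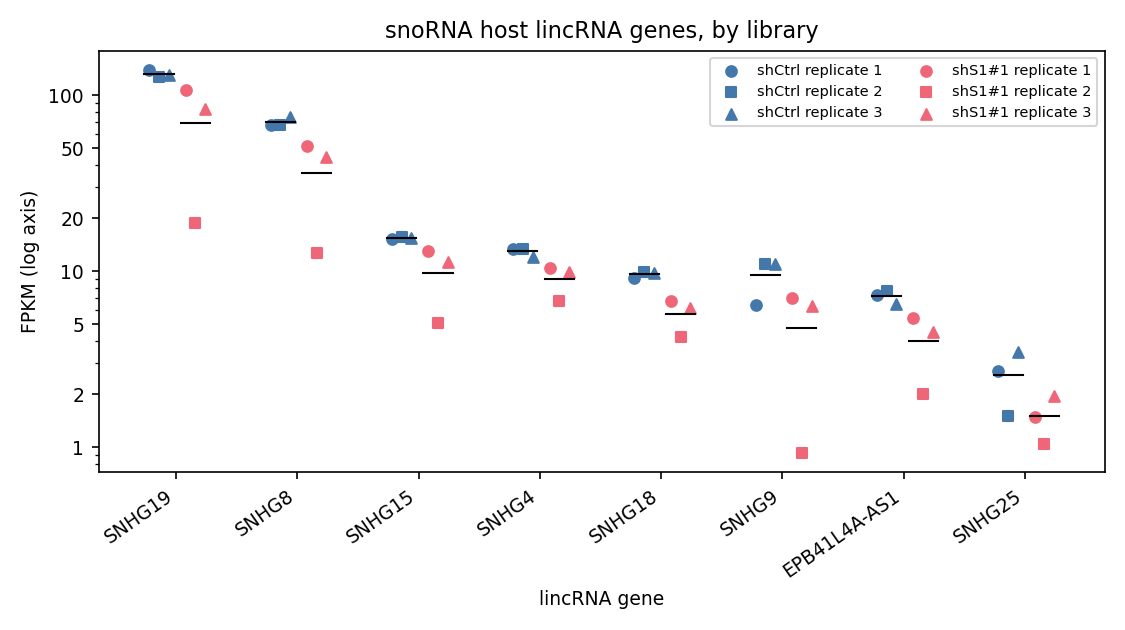
FPKM (log axis) of the 8 snoRNA host genes per library, with shCtrl and shS1#1 libraries in different colours, marker shapes for replicates and bars at group means. In all 8 genes the lowest point is shS1#1 replicate 2, and the other shS1#1 points lie nearer to the shCtrl points.

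MicroRNA hosts are long precursors from which hairpins are cut in the nucleus, so that the level of the host transcript is not that of the mature microRNA, which was not measured here. Of 6 such genes by name, 1 passed the test with all libraries (16.7%, against 14.0% of all genes tested) and 3 without shS1#1 replicate 2 (27.8% of all genes tested). The gene that passed with all libraries, MIR4435-2HG, averaged under 2 FPKM in shCtrl cells. It entered through its higher shS1#1 values, so nothing is read from this count. A selection of the mature microRNAs annotated in the loci of 5 of these genes and of LINC00472 is printed to show the seeds they carry (RefSeq, GRCh38.p14), without other arms and less studied hairpins. Capitals mark the seed, bases 2 to 8. Of those printed, the miR-30, let-7 and miR-221/222 members each share a seed within their own locus, while miR-200c and miR-141 differ in theirs. MIR200CHG holds miR-200c-3p (chr12:6963742-6963764) and miR-141-3p (chr12:6964155-6964176), MIR22HG miR-22-3p (chr17:1713914-1713935), MIRLET7BHG let-7a-5p (chr22:46112752-46112773) and let-7b-5p (chr22:46113691-46113712), MIR222HG miR-221-3p (chrX:45746180-45746202) and miR-222-3p (chrX:45747036-45747056), LINC00472 miR-30a-5p (chr6:71403595-71403616) and miR-30c-5p (chr6:71377003-71377025), and MIR4435-2HG miR-4435 (chr2:111321061-111321082).
miR-200c-3p: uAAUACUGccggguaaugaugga
miR-141-3p: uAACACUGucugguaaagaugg
miR-22-3p: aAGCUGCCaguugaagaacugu
let-7a-5p: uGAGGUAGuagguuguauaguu
let-7b-5p: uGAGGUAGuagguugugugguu
miR-221-3p: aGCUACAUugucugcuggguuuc
miR-222-3p: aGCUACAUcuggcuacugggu
miR-30a-5p: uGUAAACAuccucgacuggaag
miR-30c-5p: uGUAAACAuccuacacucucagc
miR-4435: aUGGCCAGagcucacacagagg

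MIR200CHG, host of microRNAs that keep epithelial cells epithelial, was at 7.57, 8.57 and 8.32 FPKM in shCtrl cells and at 12.9, 2.50 and 8.59 FPKM in shS1#1 cells. MIR22HG was at 4.35, 5.43 and 4.70 FPKM against 8.14, 2.79 and 7.48 FPKM, and MIR222HG at 2.56, 2.48 and 2.72 FPKM against 4.01, 0.892 and 3.31 FPKM. In all 3, replicate 2 of shS1#1 lay below every control and the other pair above every control. The log2 fold changes were -0.31, 0.20 and -0.16 with all libraries (limma adjusted p = 0.742, 0.761 and 0.863), and 0.37, 0.69 and 0.48 without that library (adjusted p = 0.177, 0.00747 and 0.0233). MIR4435-2HG rose, at 1.60, 1.45 and 1.33 FPKM against 2.31, 2.94 and 2.57 FPKM (0.79, adjusted p = 0.0125, and 0.0534 to 0.0631 with a replicate block or without shCtrl replicate 2, shCtrl replicate 3 or shS1#1 replicate 3), and shared 2254 bases with CYTOR at 99.2% identity. As its shCtrl mean was under 2 FPKM, its direction was fixed by the way it was chosen. MIRLET7BHG and MIR4713HG had log2 fold changes of 0.19 and 0.40 and did not pass (adjusted p = 0.258 and 0.193).

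Of 7 lincRNA genes often studied in cancers, 2 passed, MIR4435-2HG and LINC01133 (14.0% of all genes tested), and 2 passed without shS1#1 replicate 2 (27.8%). MIR4435-2HG entered through its higher shS1#1 values, so nothing is read from this count against the background. LINC01133 was at 8.78, 9.17 and 9.54 FPKM in shCtrl cells and at 6.27, 6.71 and 6.87 FPKM in shS1#1 cells, a decrease with little spread within either group (log2 fold change -0.46 ± 0.07, limma adjusted p = 0.00998), whose call was lost without shCtrl replicate 2 or 3 (adjusted p = 0.0605 and 0.0570). LINC00857, LINC01234, LINC02381 and PVT1 had values of 0.09, 0.09, -0.29 and -0.13 and did not pass, like NORAD. BISPR, named for its induction by interferon with BST2, rose from 1.59, 1.83 and 1.59 FPKM to 2.97, 2.28 and 2.67 FPKM (0.62, adjusted p = 0.0269, and 0.0603 to 0.108 with no filter, with a replicate block or without any library but shS1#1 replicate 2), although its exons overlap those of MVB12A on the same strand. BISPR also averaged under 2 FPKM in shCtrl cells and entered through its higher shS1#1 values, which fixed its direction. Of the 2 genes listed for the p53 response neither passed: TP53TG1 was at 0.02 ± 0.28, and NEAT1 is given above. No imprinted lincRNA gene of the list reached 2 FPKM.

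Genes of proteins that process or degrade such RNAs were looked at as well. Of 18 genes of the nuclear RNA exosome, which trims and degrades nuclear RNA, 2 passed (11.1%, against 14.0% of all genes tested), EXOSC2 and EXOSC3, both lower (log2 fold change -0.43 and -0.37), and 5 passed without shS1#1 replicate 2 (27.8%, as among all genes tested), 2 higher and 3 lower. Of 16 genes of nonsense-mediated decay, which removes spliced snoRNA host RNAs, CASC3 rose by 0.32 and UPF3B fell by 0.40 (12.5%, against 14.0% of all genes tested), and 5 passed without that library (27.8% of all genes tested). None of the 14 genes of microRNA maturation that were tested passed with limma (14.0% of all genes tested did), where 3 had an unadjusted p under 0.05, while 1 passed with voom on the recovered reads and 3 passed with limma without shS1#1 replicate 2 (27.8% of all genes tested).

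To relate each gene to its surroundings, the protein-coding gene with the nearest start coordinate was taken. For the 185 genes these were 173 different genes, at a median distance of 21152 bases, and 150 were expressed well enough to be tested. Across these 150 pairs the log2 fold changes of lincRNA gene and neighbour had a Pearson r of 0.24 (0.25 without shS1#1 replicate 2) and a Spearman rho of 0.23. For 7903 pairs of protein-coding genes and their nearest protein-coding gene the values were 0.17 and 0.13. These are correlations across genes, which share the same 6 libraries, and genes are not independent replicates. With distances taken between 5′ ends instead, r was 0.39 over 153 pairs, but protein-coding pairs were not computed in that way. Within 50 kb by start, r was 0.235 over 108 lincRNA pairs and 0.210 over 5376 protein-coding pairs. Pairs whose spans overlapped had an r of -0.06 (24 pairs). Of the 30 called lincRNA genes with a tested neighbour, 8 (26.7%) had a called neighbour, against 22 of 120 (18.3%) among those not called and 20.4% of called protein-coding genes. Of the 8 pairs, 5 changed in the same direction and 3 in opposite directions, while 71.6% of 268 such protein-coding pairs changed in the same direction. The 5 include AC078820.1 and AC078923.1, which share the neighbour KRR1, so they are not 5 separate loci.

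**Figure D5:**
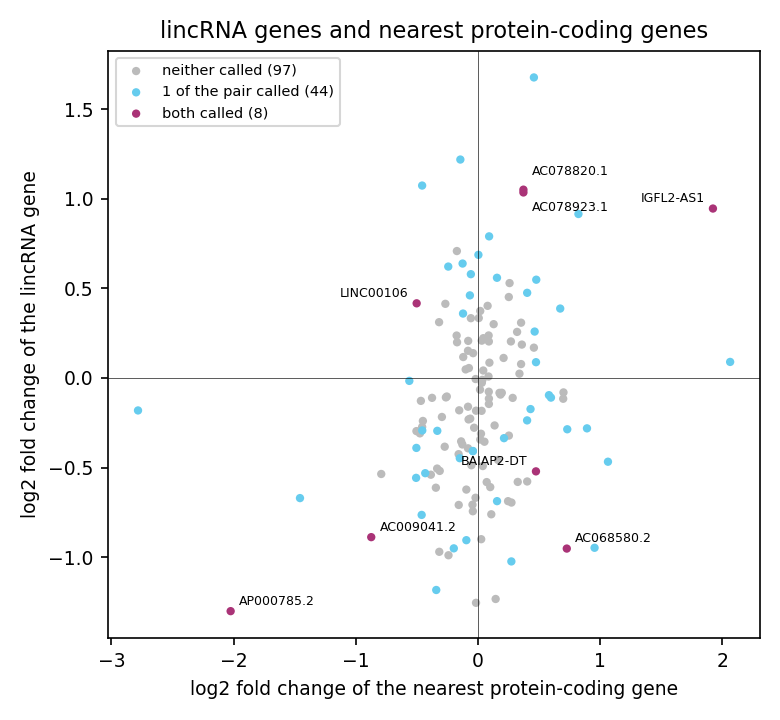
Log2 fold change of the lincRNA gene (y axis) against that of its nearest protein-coding gene (x axis), shS1#1 over shCtrl, for 149 pairs with a tested neighbour. Both genes are called in 8 pairs (named), 1 of the pair in 44 and neither in 97. AP000785.2 lies at the lower left and IGFL2-AS1 at the upper right, and 3 named pairs lie where the signs differ.

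The pair with the largest decrease was on chromosome 11. AP000785.2 (chr11:76210956-76216025) ends 220 bases upstream of the start of WNT11, on the same (minus) strand. WNT11, a secreted ligand of non-canonical Wnt signalling, was at 133, 129 and 135 FPKM in shCtrl cells and at 35.05, 27.5 and 35.4 FPKM in shS1#1 cells (log2 fold change -2.02 ± 0.11, limma adjusted p = 0.000379). The antisense gene AP000785.1 inside WNT11 fell too (-2.08 ± 0.34, adjusted p = 0.0120). All 3 genes of this locus were lower in every shS1#1 library. AP000785.2 rested on 11 to 41 reads per library.

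On chromosome 19, lincRNA genes and members of the IGFL family, small secreted proteins related to insulin-like growth factors, lie side by side, some with overlapping spans. IGFL2-AS1 (chr19:46189166-46203083) was at 22.3, 23.0 and 20.6 FPKM in shCtrl cells and at 46.2, 37.0 and 44.5 FPKM in shS1#1 cells (0.95 ± 0.10, limma adjusted p = 0.00289). Its nearest gene IGFL1, 40586 bases away, was at 7.22, 7.34 and 6.06 FPKM against 29.6, 22.0 and 27.8 FPKM (1.92 ± 0.14, adjusted p = 0.000699). Both were higher in every shS1#1 library. The pseudogene IGFL1P1, whose span overlaps that of IGFL2-AS1, rose by 1.19 (adjusted p = 0.00178). AC007785.1 (chr19:46101122-46196218), whose rise is given above, has a span over IGFL2, which did not pass (-0.17, adjusted p = 0.338), and near IGFL4, which rose by 0.38 (adjusted p = 0.0467). The nearest gene by start, IGFL3, was too low to be tested. Changes in this locus were thus not shared by all of its genes. The spans of AC007785.1 and IGFL2-AS1 overlap each other on opposite strands. As strandedness of counting is not known, both may hold the same reads, and their rises may not be separate.

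AC009041.2 and SOX8, a transcription factor gene, lie on opposite strands of chromosome 16, with 212 bases between their spans. AC009041.2 was at 4.07, 4.23 and 4.46 FPKM in shCtrl cells and at 2.56, 1.85 and 2.40 FPKM in shS1#1 cells, and SOX8 at 6.45, 6.45 and 6.94 FPKM against 4.11, 3.03 and 3.62 FPKM. Both fell by nearly the same amount (-0.89 and -0.87, limma adjusted p = 0.00903 and 0.00679), and exons of AC009041.2 overlap those of LMF1 on the same strand. Of the 29 lincRNA genes that start within 2 kb of their nearest protein-coding gene and run away from it, 5 were called, all 5 lower (5.17% of all genes tested were), among them AC009041.2, FOXD2-AS1, AL365181.2 and BAIAP2-DT. This was 17.2% of the 29, against 14.0% of all genes tested, and without shS1#1 replicate 2 there were 10 calls (27.8% of all genes tested), 7 lower and 3 higher. BAIAP2-DT fell by 0.52 while BAIAP2, which encodes an adaptor of the actin cytoskeleton, rose by 0.48 (adjusted p = 0.0113 and 0.00820), 241 bases apart. The call of BAIAP2-DT was lost without any of the shCtrl libraries (adjusted p from 0.0508 to 0.0630), and that of AC009041.2 without shCtrl replicate 2 or 3 (0.0501 and 0.0520). Neither FOXD2 (-0.51) beside FOXD2-AS1 nor BCAN (-0.15) beside AL365181.2 passed.

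AC078820.1 and AC078923.1 share the nearest gene KRR1, needed for ribosome assembly, which rose by 0.37 (limma adjusted p = 0.0329). The start of KRR1 lies 72341 bases from that of AC078923.1 and more than 100 kb from that of AC078820.1. GLIPR1, within 100 kb of AC078923.1, rose by more, 1.03 (adjusted p = 0.000696). AC068580.2 fell by 0.95 while CTSD, the gene of the lysosomal protease cathepsin D, rose from 54.4, 55.2 and 58.3 FPKM to 99.5, 83.3 and 96.0 FPKM (0.73, adjusted p = 0.00404). The call of AC068580.2 was lost with a replicate block and without any of the shCtrl libraries (adjusted p from 0.0612 to 0.0795). LINC00106, in a region shared by the X and Y chromosomes, rose by 0.42 while ASMTL fell by 0.50 (adjusted p = 0.0415 and 0.0158). The call of LINC00106 was lost with no filter, TPM scaling, no trend, voom or a replicate block and when any library but shS1#1 replicate 2 was left out (adjusted p from 0.0599 to 0.152). SLC25A6 in the same region, a mitochondrial ADP/ATP carrier, fell by 0.51.

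Other strongly changed lincRNA genes had a nearest gene by start that did not pass with all libraries or was not tested. LINC01269 lies between MAP3K9, its nearest gene, at 0.46 (limma adjusted p = 0.124, and 0.0452 at a value of 0.27 without shS1#1 replicate 2), and TTC9, which was at 2.07, 2.31 and 2.28 FPKM in shCtrl cells and at 7.19, 6.96 and 7.06 FPKM in shS1#1 cells (1.63 ± 0.08, adjusted p = 0.000212). LINC02560 is nearest to ZNF584, at -0.46 (adjusted p = 0.0710, and 0.0145 at -0.57 without shS1#1 replicate 2), and 4131 bases from RNF225, which rose by 1.34. The nearest gene of AC254633.1 was not tested, and DHRS3, a gene of retinal reduction with 1169 bases between its span and that of AC254633.1, rose by 0.85. AC009283.1, at 16.5, 17.4 and 17.4 FPKM against 10.1, 6.23 and 10.7 FPKM (-0.96, adjusted p = 0.0289), has the untested NEUROD2 as nearest gene, and PPP1R1B at 59825 bases fell by 1.46. LINC00472 rose while OGFRL1 was at -0.14 (adjusted p = 0.557).

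Large changes of a neighbour also occurred beside a lincRNA gene that did not pass. SCAMP1-AS1, whose nearest gene is the hairpin's target, was at 4.01, 4.72 and 4.41 FPKM in shCtrl cells and at 4.74, 3.02 and 3.97 FPKM in shS1#1 cells. The groups overlapped (log2 fold change -0.18, 95% interval ± 0.41, limma adjusted p = 0.506). The fall of SCAMP1 was set by the design, so nothing on lincRNA genes and their neighbours is read from this pair. The pair is included in the 150 pairs and in the 22 called neighbours given above. MUC20-OT1 was at 3.73, 3.76 and 3.61 FPKM against 3.67, 4.25 and 3.93 FPKM (0.09, adjusted p = 0.50) while MUC20, a membrane mucin gene whose exons it overlaps, was at a log2 fold change of 2.07. Of 9 nearest genes that were shared by several lincRNA genes, 21 in all, 6 had lincRNA genes of one sign only, and KRR1 and SAMD11 had more than 1 called.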

How the data were processed

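RNA-seq of NCI-N87 cells gave 6 libraries, 3 of each group. Groups were taken from the library labels, whose names for the control and for the SCAMP1 hairpin were matched to shCtrl and shS1#1. The authors deposited FPKM values per gene with gene length, coordinates and biotype. The submitters' processing notes name HISAT2 2.0.5, featureCounts 1.5.0-p3, DESeq2 1.20.0 and build hg38, and strandedness of counting is not given in the sources used here, so that reads of antisense partners may not be separated. FPKM multiplied by length gave whole multiples of 1 step (tolerance 0.01) for 100% of values in each library, and thereby reads per gene. The deposited FPKM already include a scaling between libraries. All per-sample columns were used.

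The 15556 genes averaging 0.5 FPKM or more were tested with limma 3.58.1 in R 4.3.3 on log2(FPKM + 0.1), with a mean-variance trend and Benjamini-Hochberg adjustment over all of them. Fold changes are on that scale, where changes of low genes appear smaller than they are. The calls required an adjusted p under 0.05. The design allowed for raw counts. As the unit was FPKM, the log-scale test was used. Coordinates matched GENCODE release 29 (GRCh38) for all 58735 genes. The nearest protein-coding gene was the one with the closest start coordinate, and similar sequences were sought with BLAST 2.17.0. Scripts used Python 3.11.15, pandas 2.3.3 and numpy 2.4.6, and the fit was tested on simulated data.

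Members and lists were chosen with earlier results of these data known. The genes named were the 8 with the highest mean, all with an adjusted p under 0.05 and a fold change above 2, up to 6 of each class of lincRNA gene (snoRNA hosts, microRNA hosts, cancer-studied, p53, interferon, nuclear body and others), the 5 closest pairs with both genes called, and the 3 genes on either side of the threshold. Other genes were named after their values were seen: those called whichever library was left out, the remaining class members, the remaining pairs with both genes called and genes around these loci. One gene on the Y chromosome was counted but is not shown, and 1 further gene that was counted is not reported here. Alternatives were other pseudocounts, filters and scalings, voom on the recovered reads, a replicate block and each library left out.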

Additional observations from a re-analysis of the deposited data

How the results depend on the processing

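Against 40 genes called, 26 were called with no filter on low values and 14 (of 63) among genes of at least 5 FPKM. When a library was left out, 15 to 65 were called, lowest without shCtrl replicate 3 and highest without shS1#1 replicate 2. With the replicate block 21 were called, 20 of them among the 40. Calls over all genes moved too, from 2177 in the main fit to 1614 with no filter and 958 with the block. They were 808 to 4330 with a library left out. The changes in count are therefore not read as particular to the 185 genes. The same-number libraries had correlations of deviations of -0.035, 0.032 and 0.067, so the numbers gave no sign of pairing. Against 10 called with a fold change above 2, a pseudocount of 1 gave 5, and leaving out a library gave 5 to 12. The neighbour correlation of 0.24 was 0.39 with 5′ ends and 0.28 for spans that do not overlap, without values of protein-coding pairs for either. The share of the genes differed by 0.014 percentage points in reads and by -0.053 in summed FPKM (shS1#1 minus shCtrl). Without shS1#1 replicate 2, 28 of the 185 genes had the opposite sign, none of them called with all libraries. Named genes whose fold change turned sign were not called with all libraries: NORAD (-0.13 to 0.21 when a library was left out), MIR200CHG (-0.79 to 0.37), MIR22HG (-0.068 to 0.69, and -0.0084 without shS1#1 replicate 3), PVT1 (-0.20 to 0.012), TP53TG1 (-0.13 to 0.32, and -0.00195 with TPM scaling) and MIR222HG (-0.54 to 0.48). With a gene length trend removed, an alternative chosen after seeing the data, AC105460.1 was at 0.016. The cause was not tested. Of 44 named genes, all kept their status, called or not, with pseudocounts of 1 and 0.01 and a filter of 1 FPKM. The same held with scaling by the median of protein-coding genes. A call was lost by 8 with the block, 6 with no filter, 4 with no trend, 2 with voom and 1 with TPM scaling. With voom, SNHG4 gained a call (voom adjusted p = 0.0428). Summed snoRNA hosts in shS1#1 were 0.543 of shCtrl, and 0.424 to 0.715 with a library left out. At least 100 reads in every library were found for 14 of the 40 called genes and for 55 of all 185. The other 26 called genes had fewer in a library, and an effect of depth on the calls was not tested.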

Other observations

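The genes were divided by length into 3 classes of 61, 62 and 62. Among short genes (110 to 630 bases) 11 of 13 calls were higher in shS1#1 cells, among those of middle length (631 to 2263 bases) 4 of 8 and among long genes (2290 to 22767 bases) 7 of 19. The corresponding counts without shS1#1 replicate 2 were 11 of 17, 10 of 18 and 12 of 30. Of all called genes 63.0% were higher, and without that library 2280 of 4330. Whether these shares differ was not tested. In shS1#1 replicate 2 the median level relative to the other shS1#1 libraries was 0.986 for short, 0.749 for middle and 0.958 for long genes. Of the 25 genes called only without shS1#1 replicate 2, those with the largest differences without it were LINC01978, at 2.05, 2.21 and 1.93 FPKM in shCtrl cells and at 3.76, 2.49 and 4.30 FPKM in shS1#1 cells (log2 fold change 0.71, limma adjusted p = 0.0665, and 0.93, adjusted p = 0.00255, without it), and LINC01315, at 3.38, 4.17 and 3.78 FPKM against 2.27, 0.865 and 1.78 FPKM (log2 fold change -1.25, limma adjusted p = 0.0529, and -0.87, adjusted p = 0.00866, without it). By name, 11 of 34 genes with a LINC number were called, 20 of 105 known by a clone name and 9 of 46 others, against 14.0% of all genes tested. These were 15, 31 and 19 without shS1#1 replicate 2, against 27.8%. The calls include genes that averaged under 2 FPKM in shCtrl cells and entered through higher shS1#1 values. Among those with a LINC number these were LINC01940, LINC00472, LINC02560 and LINC01186. Nothing is therefore read from the difference to the background.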
